A study of Homo sapiens with 6 samples.

Results

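Cholesterol and fatty acid synthesis were followed through 34 pathway genes, matched by name out of 58735 genes in the table. The genes were chosen with earlier results of these data known, so the list cannot be taken as independent of the data. They comprise 19 enzymes of the sterol branch, 9 genes of the fatty acid branch and 6 genes grouped as regulators. The regulators include STARD4, a cholesterol carrier. RNA sequencing gave their levels in SK-MES-1, an established human line from a lung squamous cell carcinoma. The groups were 2 libraries of si1 and 2 of si2, the groups with transient KRT6A knockdown, and 2 of NC, the control cells. All 6 libraries came from the same line. The labels do not spell out these group names, the knockdown reagents or the time after transfection, and nothing in them says that the 2 libraries of a group came from separate cultures. If they did not, the p-values measure only technical spread.

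Sterols are built from acetyl-CoA by condensation to mevalonate, conversion to isoprenoid units, joining of these into squalene, closure of the rings and a series of trimming steps. Fatty acids are built from the same acetyl-CoA, then lengthened, desaturated and activated. Transcription of both branches is driven by the sterol regulatory element-binding proteins (SREBPs). These are held in the endoplasmic reticulum by SCAP and the INSIG proteins when sterols are plentiful, and are moved to the Golgi, cut and sent to the nucleus when sterols are scarce. SREBP-2 acts mainly on sterol genes and SREBP-1 mainly on fatty acid genes, and many of their target promoters also carry a CCAAT box, the binding sequence of NF-Y.

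In si2 most of the sterol branch was lower (13 of 19 genes), with 4 of 9 fatty acid genes and 3 of 6 regulators. Of the 34 members, 20 fell (58.8%, against 15.4% of all genes tested) and 0 rose (against 13.6%) in si2 relative to NC. In that group CYP51A1, DHCR7, LSS and SCD were at 44.4% to 52.4% of their NC means. In si1 6 fell (17.6%, against 12.9% of all genes tested) and 4 rose (11.8%, against 9.47%), shares near those of all genes. Only HMGCS1, MSMO1, EBP, ACLY, SREBF2 and STARD4 were called lower in both groups, whereas LSS and FADS2 were called higher in si1 and lower in si2. What share of all genes showed either pattern was not counted, and both comparisons share the NC libraries. Among these genes only HMGCS1 and LSS kept both calls under every alternative run. ACAT2 and HSD17B7, called lower in si2 only, also lay below NC in si1 (-0.25 and -0.29). For neither gene did the difference between si2 and si1 pass the threshold.

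The promoters of 7 members are shown for 3 patterns: SREBF2, HMGCS1, MSMO1 and EBP fell in both groups, LSS and PMVK rose in si1, and DHCR7 fell in si2 with no call in si1. Each is the 160 bases before a start site, read 5' to 3' along the gene, from RefSeq on GRCh38.p14. They lie at SREBF2 (chr22:41832945-41833104, plus strand), HMGCS1 (chr5:43313413-43313572, minus strand), MSMO1 (chr4:165327509-165327668, plus strand), EBP (chrX:48521648-48521807, plus strand), LSS (chr21:46228775-46228934, minus strand), PMVK (chr1:154936720-154936879, minus strand) and DHCR7 (chr11:71448394-71448553, minus strand). Capitals mark CCAAT or its reverse complement ATTGG, and in SREBF2 also the sterol element TCACCCCAC, all searched on both strands.
SREBF2: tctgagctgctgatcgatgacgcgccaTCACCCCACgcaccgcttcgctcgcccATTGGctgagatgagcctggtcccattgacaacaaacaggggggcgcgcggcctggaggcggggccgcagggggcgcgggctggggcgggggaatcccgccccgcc
HMGCS1: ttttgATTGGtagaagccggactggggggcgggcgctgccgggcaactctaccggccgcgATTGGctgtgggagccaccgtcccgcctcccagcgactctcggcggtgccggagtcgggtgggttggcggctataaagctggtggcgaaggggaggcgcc
MSMO1: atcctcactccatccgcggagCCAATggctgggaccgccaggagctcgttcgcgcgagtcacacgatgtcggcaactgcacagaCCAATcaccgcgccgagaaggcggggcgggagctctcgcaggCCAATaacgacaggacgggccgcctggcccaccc
EBP: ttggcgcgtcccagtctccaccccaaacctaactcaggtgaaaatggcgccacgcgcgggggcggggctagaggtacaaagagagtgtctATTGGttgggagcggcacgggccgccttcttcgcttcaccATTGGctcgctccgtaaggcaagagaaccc
LSS: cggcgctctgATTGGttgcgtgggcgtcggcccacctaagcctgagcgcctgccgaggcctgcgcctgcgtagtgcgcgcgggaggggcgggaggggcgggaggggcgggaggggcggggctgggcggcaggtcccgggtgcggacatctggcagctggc
PMVK: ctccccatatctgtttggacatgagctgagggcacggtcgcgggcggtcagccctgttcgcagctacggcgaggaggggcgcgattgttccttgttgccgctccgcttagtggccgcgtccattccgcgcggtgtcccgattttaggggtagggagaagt
DHCR7: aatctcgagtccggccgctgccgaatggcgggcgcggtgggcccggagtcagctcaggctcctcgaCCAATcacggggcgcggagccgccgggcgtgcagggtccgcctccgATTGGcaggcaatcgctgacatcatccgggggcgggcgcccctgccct

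The exact letters TCACCCCAC occurred in 1 of the 30 member promoters found in the RefSeq table, that of SREBF2, at -133 to -125 from the start site. They occurred in 95 of 27305 promoters in all (0.348%), each searched over 250 bases. An ATTGG stood downstream of it at -106 to -102, with no overlap. CCAAT or ATTGG occurred in 12 of the 16 sterol branch promoters, 4 of 8 of the fatty acid branch and 3 of 6 of the regulators, against 33% of all promoters. It was present in the promoters of HMGCS1, MSMO1 and EBP, which fell in both groups, and of LSS, which moved in opposite directions. DHCR7, which fell in si2, and SC5D, which was not called in any comparison, also had a match. No match stood in the promoter of PMVK, which rose in si1, or in those of IDI1, CYP51A1 and FADS2, which fell in si2. A match describes letters, not binding, and other forms of the sterol element were not searched.

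The table held 14948607 to 17401392 reads per library, recovered from the deposited FPKM (fragments per kilobase of gene, with libraries put on a common scale). FPKM is corrected for gene length with a single length per gene, so levels compared between genes depend on that length. The si2 libraries were the shallowest, at 15700286 and 14948607 reads. KRT6A itself had 0 reads in all 6 libraries, NC included, which allows at most 0.0583 to 0.0678 FPKM (3 reads, counting error only), so the knockdown could not be seen in these data and the group labels could not be checked from it. Of 9 squamous and basal markers only PKP1 and TP63 reached a mean of 1 FPKM, with KRT6A and DSG3 at 0 throughout, while 5 of 6 simple epithelial markers did, led by KRT7 at a mean of 146 FPKM. The simple epithelial markers summed to 376 and 370 FPKM in si1, 264 and 277 in si2 and 355 and 379 in NC. In si2 KRT7 (-0.68, adjusted p = 0.000424) and KRT19 (-0.70, adjusted p = 0.00127) fell, while KRT18 (0.27, adjusted p = 0.0279) and EPCAM (0.36, adjusted p = 0.0216) rose. The squamous and basal markers that reached 1 FPKM moved apart in si2, where TP63 rose to 194% of its NC mean (0.85, adjusted p = 0.00119) and PKP1 fell to 52.2% (-0.87, adjusted p = 0.000406). The part of these markers in the results was not tested. Summed over their lists, endothelial markers were at 0.303 to 0.51 FPKM with CDH5 at 0, and leukocyte markers at 0.819 to 1.76 with CD3E at 0, and 0 of 4 and 1 of 5 markers reached a mean of 1 FPKM. Fibroblast markers summed to 25.3 and 20.3 FPKM in si1 and 23.9 and 23.2 in si2, against 17.5 and 17.8 in NC, led by COL1A1 with COL1A2 at 0, and 2 of 6 reached that mean.

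All 34 members were above the minimum for testing, a mean of 1 FPKM, which 12319 genes reached. In NC the most abundant were SCD at 139 FPKM, FASN at 96.6, ACLY at 78.9 and ELOVL5 at 78.6, all of the fatty acid branch, and ACLY and ELOVL5 did not differ beyond their spread (SD 2.25 and 2.08, n = 2). In the sterol branch MSMO1 stood highest at 71.5 FPKM and DHCR7 next at 60.6, and SQLE (36.3, SD 1.37) did not differ beyond its spread from FDFT1 (37.6) or HMGCS1 (35.2). CYP51A1 (2.73), MVK (2.39) and TM7SF2 (1.79) were the scarcest, with as few as 65, 162 and 51 reads in a library. MVK overlaps MMAB on the opposite strand (mean 2.77 FPKM), TM7SF2 overlaps VPS51 and CYP51A1 overlaps AC000120.2 and AC000120.3 on the same strand. How reads in such overlaps were counted is not given in the sources used here. Summed FPKM of the sterol branch was 383 and 396 in si1 and 274 in each si2 library, against 416 and 418 in NC. The fatty acid branch summed to 492 and 456 in si1 and 346 and 340 in si2, against 481 and 477 in NC, and the regulators to 122 and 121 in si1 and 102 and 101 in si2, against 122 and 118 in NC. In these bulk libraries, fewer cells making an RNA and less RNA per cell cannot be told apart.

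**Figure D1:**
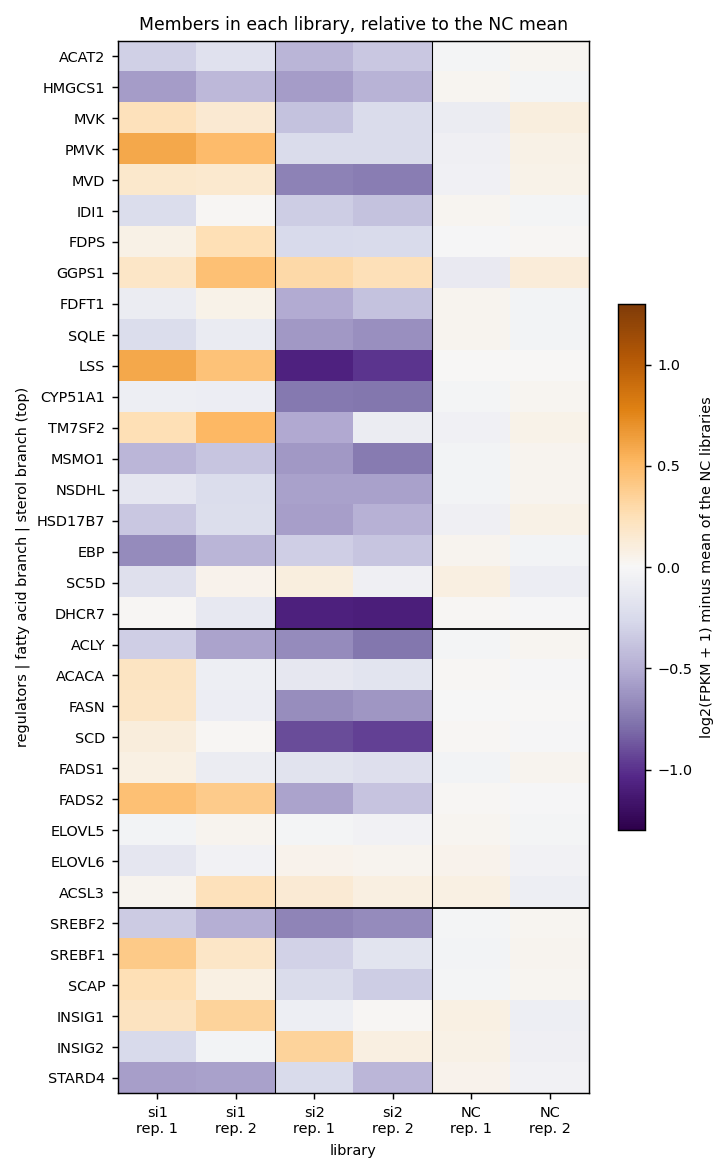
Levels of the 34 members (rows: sterol branch at the top in pathway order, then the fatty acid branch, then the regulators) in each library (columns), as log2(FPKM + 1) minus the mean of the NC libraries, with orange above and purple below NC. The si2 columns are purple over most of the sterol branch, and the si1 columns are orange at LSS, PMVK and FADS2 and purple at HMGCS1, MSMO1 and EBP.

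The comparison of si2 with NC asked which members moved in that group. limma fitted to all tested genes, with Benjamini-Hochberg adjustment and a threshold of 0.05, called 13 of 19 sterol genes lower, 4 of 9 fatty acid genes and 3 of 6 regulators. This is 58.8% of the members, against 15.4% of all genes tested that were lower in si2 and 13.6% that were higher. The 0 members called higher were also 0 at an unadjusted p under 0.05. Both si2 libraries lay below both NC libraries for 27 members (79.4%, against 34.5% of all genes) and above them for 3 (8.82%, against 35%). The median log2 fold change was -0.45 in the sterol branch, -0.19 in the fatty acid branch and -0.26 among the regulators, against 0.005 over all genes. Without NC replicate 2 the count of members lower in si2 was 13, and without NC replicate 1 or si2 replicate 1 it was 14.

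The comparison of si1 with NC gave 3 sterol genes lower and 2 higher, 1 fatty acid gene lower and 1 higher, and 2 regulators lower and 1 higher. These are 17.6% of the members lower and 11.8% higher, near the 12.9% and 9.47% of all genes tested. Both si1 libraries lay below both NC libraries for 12 members (35.3%, against 32.4% of all genes) and above them for another 12 (35.3%, against 30.1%). The median log2 fold change of the 34 was -0.01, with a range of -0.57 to 0.54. Without NC replicate 1, and likewise without NC replicate 2, 3 members were lower and 2 higher.

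The difference between the groups was tested directly. In si2 against si1, 12 sterol genes, 4 fatty acid genes and 4 regulators were lower and 1 regulator, INSIG2, was higher. The 20 lower members are 58.8% of the list, against 18.6% of all genes tested that were lower and 19.9% that were higher. The si2 libraries lay below the si1 libraries for 25 members (73.5%, against 33.8% of all genes) and above them for 4 (11.8%, against 36.3%). When si1 and si2 were averaged and set against NC, 17 members were lower and 0 higher (1 at an unadjusted p under 0.05, 0 to 1 higher in the other limma fits), where 11.8% and 8.73% of all genes were. The average runs over members that moved in opposite directions. The 17 came to 7 without NC replicate 1 and to 7 without NC replicate 2.

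**Figure D2:**
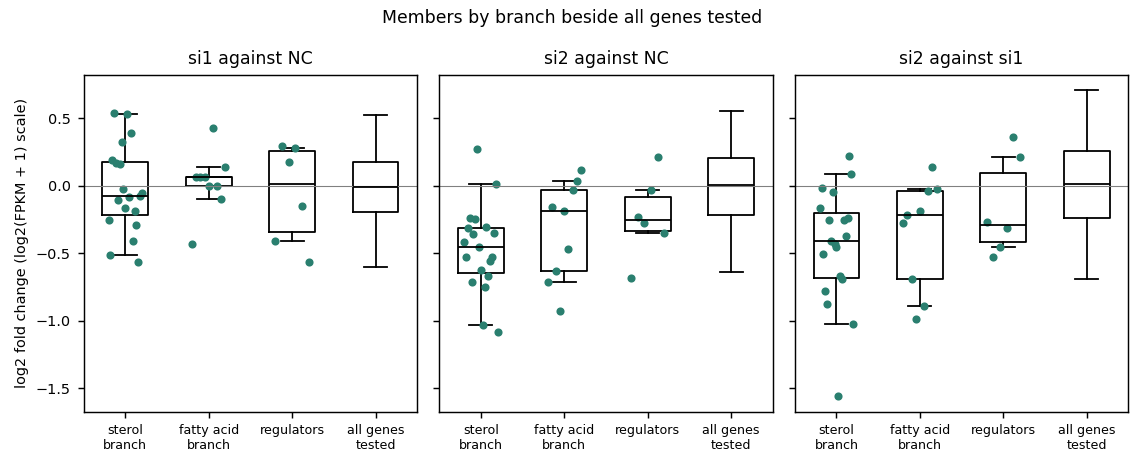
log2 fold changes of the members (points) in the sterol branch, fatty acid branch and regulators, beside all 12319 genes tested, in panels for si1 and for si2, each against NC, and for si2 against si1. Boxes span the quartiles with the median as a line, and whiskers run to the 5th and 95th percentiles. The sterol branch is centred near 0 in si1 (median -0.07) and at -0.45 in si2.

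At the entry into the sterol branch, HMGCS1 fell in both groups and ACAT2 in si2. HMGCS1 (ENSG00000112972, chr5:43289395-43313512, hg38), which makes the HMG-CoA that commits carbon to mevalonate, was at 23.2 and 25.6 FPKM in si1 and 23.1 and 25.1 in si2, against 35.8 and 34.7 in NC. All 4 si1 and si2 libraries lay below NC, and si1 and si2 overlapped. The log2 fold change was -0.51 in si1 (SE 0.0765, adjusted p = 0.00431) and -0.53 in si2 (SE 0.0765, adjusted p = 0.00334), and the difference of -0.02 between si2 and si1 had an SE of 0.0765. ACAT2, the cytosolic thiolase that supplies acetoacetyl-CoA to it, was at 14.6 and 16 FPKM in si1 and 13 and 14 in si2, against 18 and 18.6 in NC. It fell in si2 (-0.42, adjusted p = 0.00847), and its value in si1 was -0.25 (adjusted p = 0.0567, or 0.0466 without si1 replicate 2). The ACAT2 call in si2 did not hold without NC replicate 2 (adjusted p = 0.067) or si2 replicate 1 (0.0619). ACAT2 overlaps TCP1 on the opposite strand, whose mean was 75.3 FPKM, and without a statement that counting used strand their reads cannot be separated with certainty.

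The mevalonate kinases and the decarboxylase lay higher in si1 than in si2. PMVK, phosphomevalonate kinase (chr1:154924734-154936991), was at 19.6 and 18.2 FPKM in si1 and 10.6 in each si2 library, against 12.1 and 13.3 in NC. It rose in si1 (0.54, SE 0.0769, adjusted p = 0.00355), had a value of -0.24 in si2 (adjusted p = 0.0547, but 0.0434 without si1 replicate 1 and 0.043 without si1 replicate 2), and was lower in si2 than in si1 by a log2 difference of -0.78 (adjusted p = 0.000458). MVD, the decarboxylase that yields isopentenyl diphosphate, was at 7.75 and 7.7 FPKM in si1 and 3.78 and 3.7 in si2, against 6.47 and 7.1 in NC. The si2 levels were 55.2% of the NC mean, and MVD fell in si2 (-0.71, SE 0.0795, adjusted p = 0.00127) with no call in si1 (0.17, adjusted p = 0.182). MVK, mevalonate kinase, was at 2.99 and 2.74 FPKM in si1 and 1.58 and 1.87 in si2, against 2.18 and 2.61 in NC. Neither group differed from NC past the threshold for MVK, but si2 was lower than si1 (-0.51, adjusted p = 0.0163), a call lost without si1 replicate 1 (adjusted p = 0.0763) and without si2 replicate 1 (adjusted p = 0.0835).

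The isoprenoid steps gave 1 call against NC. IDI1, the isomerase of isopentenyl diphosphate, was at 20.9 and 24.9 FPKM in si1 and 19.4 and 18.6 in si2, against 25.1 and 24.3 in NC, and fell in si2 (-0.36, adjusted p = 0.0245). The IDI1 call was lost in each fit that left out an NC or si2 library (adjusted p = 0.12 without NC replicate 1, 0.0996 without NC replicate 2, 0.0831 without si2 replicate 1 and 0.11 without si2 replicate 2). IDI1 in si2 differed from si1 by -0.25 (adjusted p = 0.0641), and by -0.37 without si1 replicate 1 (adjusted p = 0.0109). FDPS, farnesyl diphosphate synthase, was at 18.6 and 21.5 FPKM in si1 and 14.7 and 14.8 in si2, against 17.6 and 17.9 in NC. Its groups were ordered si1, NC, si2 with no overlap, and only the difference between si2 and si1 passed (-0.41, adjusted p = 0.00779). Without si1 replicate 1 FDPS also passed in si1 (0.26, adjusted p = 0.0419) and in si2 (adjusted p = 0.0191), and without si1 replicate 2 in si2 (adjusted p = 0.0192). GGPS1 makes the geranylgeranyl diphosphate used to anchor proteins in membranes. It was at 6.76 and 8.38 FPKM in si1 and 7.38 and 7.14 in si2, against 5.28 and 6.43 in NC. Both groups lay above NC, with limma values of 0.32 (adjusted p = 0.103) and 0.27 (adjusted p = 0.134) that did not pass. GGPS1 overlaps ARID4B on the opposite strand (mean 6.99 FPKM) and TBCE on the same strand, so part of its reads may be shared.

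RNA of the squalene synthase and squalene epoxidase genes fell in si2. FDFT1, squalene synthase, was at 35.1 and 39 FPKM in si1 and 26.1 and 28.4 in si2, against 38.5 and 36.7 in NC (si2: -0.45, SE 0.0775, adjusted p = 0.00653, or 0.0526 without NC replicate 1). SQLE, squalene epoxidase, a rate-limiting step of the pathway, was at 30.8 and 33.7 FPKM in si1 and 23.5 and 22.9 in si2, against 37.3 and 35.3 in NC (si2: -0.62, SE 0.0699, adjusted p = 0.0013). For both genes si1 was not called against NC (-0.02, adjusted p = 0.863 for FDFT1 and -0.17, adjusted p = 0.136 for SQLE). For both, si2 was lower than si1, by log2 differences of -0.43 (adjusted p = 0.00526) and -0.46 (adjusted p = 0.00264).

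Lanosterol synthase showed the widest gap between the groups of all 34 members. LSS (ENSG00000160285, chr21:46188141-46228824), which closes the ring system, was at 38.4 and 34.8 FPKM in si1 and 11.4 and 12.1 in si2, against 25.1 in each NC library. That is 146% of the NC mean in si1 and 46.8% in si2. LSS rose in si1 (0.53, SE 0.0732, adjusted p = 0.00323) and fell in si2 (-1.03, SE 0.0732, adjusted p = 0.000273), and si2 was lower than si1 by a log2 difference of -1.56 (SE 0.0732, adjusted p = 3.22e-05). Next to it in the pathway, SQLE was below NC in all 4 si1 and si2 libraries, at 88.8% of the NC mean in si1 and 63.9% in si2. The ratio of LSS to SQLE in FPKM was 1.25 and 1.03 in si1 and 0.485 and 0.529 in si2, against 0.673 and 0.709 in NC. The ratio shows that the neighbours changed unequally.

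**Figure D3:**
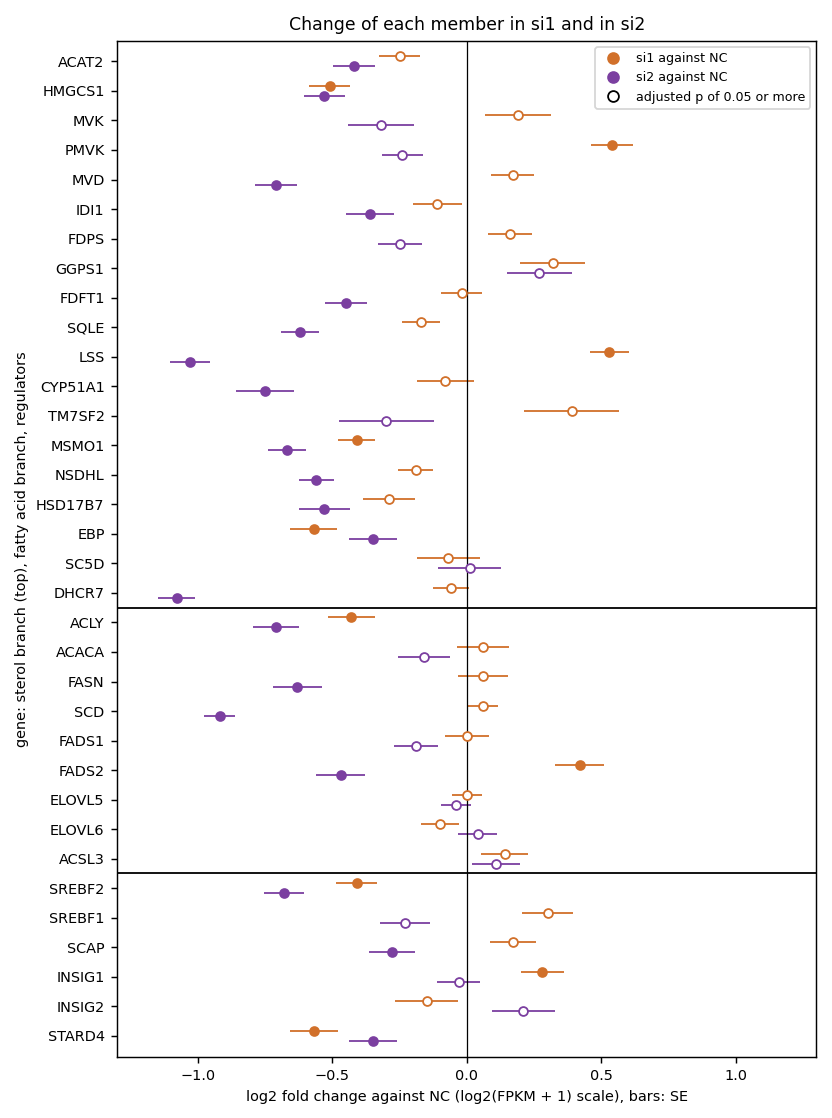
log2 fold change against NC of each member in si1 (orange) and si2 (purple) on the log2(FPKM + 1) scale, with bars for limma's SE. Filled points passed an adjusted p of 0.05 and open points did not. HMGCS1 has overlapping points, while LSS lies at 0.53 in si1 and -1.03 in si2.

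The trimming steps that turn lanosterol into cholesterol fell into 3 patterns. MSMO1, the C4-methylsterol oxidase, was lower in both groups, at 51.9 and 55 FPKM in si1 and 46.6 and 42.5 in si2, against 69.7 and 73.2 in NC (-0.41, SE 0.07, adjusted p = 0.00719 and -0.67, SE 0.07, adjusted p = 0.00103). The si1 call for MSMO1 did not survive leaving out NC replicate 2 (adjusted p = 0.0629). MSMO1 was lower in si2 than in si1 by -0.26 (adjusted p = 0.0256), which missed the threshold without NC replicate 1 or NC replicate 2 (0.0502 each), si1 replicate 2 (0.0735) or si2 replicate 2 (0.154). EBP, the sterol isomerase, was lower in both with the larger fall in si1, at 8.35 and 9.79 FPKM in si1 and 10.9 and 10.5 in si2, against 14.2 and 13.5 in NC (-0.57, adjusted p = 0.00524 and -0.35, adjusted p = 0.0259). In si2 EBP missed the threshold without NC replicate 1 (adjusted p = 0.134), NC replicate 2 (0.0951), si2 replicate 1 (0.0871) or si2 replicate 2 (0.115). EBP in si2 stood above si1 by 0.22, which did not pass (adjusted p = 0.0925) except without si1 replicate 2 (0.32, adjusted p = 0.0258).

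DHCR7, CYP51A1, NSDHL and HSD17B7 were called lower in si2 and not in si1. Both si1 libraries still lay below both NC libraries for CYP51A1, NSDHL and HSD17B7. The limma values in si1 were -0.08 (adjusted p = 0.623), -0.19 (adjusted p = 0.0849) and -0.29 (adjusted p = 0.0732). DHCR7 (ENSG00000172893, chr11:71428193-71452868), which makes cholesterol from 7-dehydrocholesterol in the last step of a known route, was at 61.2 and 55.2 FPKM in si1 and 28.1 and 27.9 in si2, against 61.2 and 59.9 in NC. Its si1 and NC libraries overlapped, and si2 stood at 46.3% of the NC mean (-1.08, SE 0.0674, adjusted p = 0.000185). CYP51A1, lanosterol demethylase, was at 2.53 and 2.51 FPKM in si1 and 1.22 and 1.2 in si2, against 2.65 and 2.8 in NC, on 65 to 176 reads (-0.75, SE 0.107, adjusted p = 0.00325). NSDHL, which removes the C4 carboxyl group, was at 29 and 27.3 FPKM in si1 and 21.5 in each si2 library, against 31.3 and 33.1 in NC (-0.56, adjusted p = 0.00152). For these 3 genes si2 was also lower than si1, by log2 differences of -1.03 (adjusted p = 0.000106), -0.67 (adjusted p = 0.00318) and -0.37 (adjusted p = 0.00472).

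HSD17B7, a 3-ketosteroid reductase, was at 4.29 and 4.84 FPKM in si1 and 3.55 and 3.85 in si2, against 5.49 and 6.1 in NC. Its fall in si2 (-0.53, adjusted p = 0.00797) was lost without NC replicate 2 (adjusted p = 0.0647) or si2 replicate 1 (0.0519), and the difference between si2 and si1 did not pass (-0.24, adjusted p = 0.0869). HSD17B7 has a pseudogene, HSD17B7P2, at a mean of 1.09 FPKM, and how reads were shared between them is not given in the sources used here. TM7SF2, a sterol reductase, was at 2.33 and 2.98 FPKM in si1 and 0.947 and 1.61 in si2, against 1.69 and 1.89 in NC. It differed between si2 and si1 (-0.69, adjusted p = 0.0198), a call lost without si1 replicate 2 (adjusted p = 0.102) or si2 replicate 1 (0.0882), and it overlaps VPS51 on the same strand. SC5D, the sterol desaturase, was at 4.9 and 6 FPKM in si1 and 6.21 and 5.45 in si2, against 6.19 and 5.36 in NC, with all groups overlapping.

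**Figure D4:**
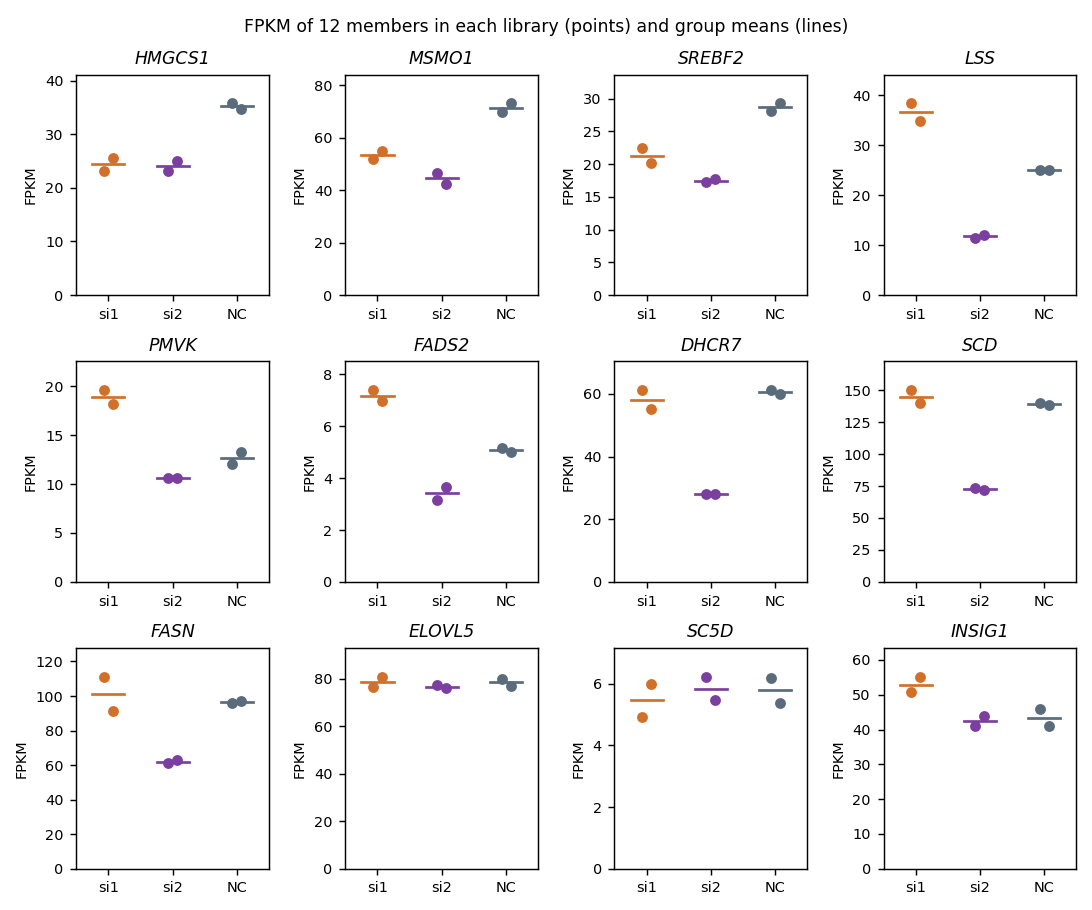
FPKM of 12 members, chosen after their values were seen to show each pattern, in every library (points) with group means (lines), each axis from 0. HMGCS1, MSMO1 and SREBF2 are below NC in si1 and si2, LSS, PMVK and FADS2 are above NC in si1 and below it in si2, DHCR7, SCD and FASN are low in si2, and ELOVL5 and SC5D overlap in all groups.

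In the fatty acid branch, ACLY, FASN, SCD and FADS2 fell in si2, and ACACA and the elongases were not called. ACLY (ENSG00000131473, chr17:41866908-41930542), which makes cytosolic acetyl-CoA from citrate for both branches, was at 63.1 and 53.5 FPKM in si1 and 49.3 and 46.2 in si2, against 77.3 and 80.5 in NC. It fell in si1 (-0.43, SE 0.0865, adjusted p = 0.0133) and in si2 (-0.71, SE 0.0865, adjusted p = 0.00173), and all 4 si1 and si2 libraries lay below NC. In si1 ACLY missed the threshold without NC replicate 1 (adjusted p = 0.0677) or NC replicate 2 (0.0862). The difference between si2 and si1 (-0.28, adjusted p = 0.0406) was lost without any of the libraries except si1 replicate 2 (adjusted p = 0.0712 to 0.179 in those 5 fits).

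FASN and SCD were called lower in si2 and not in si1. FASN, fatty acid synthase (chr17:82078333-82098332), was at 111 and 91.2 FPKM in si1 and 61 and 62.8 in si2, against 96 and 97.2 in NC. The si1 libraries stood on either side of NC, and si2 stood at 64.1% of the NC mean (-0.63, SE 0.0923, adjusted p = 0.00351). Without si1 replicate 2, the lower of the si1 libraries, FASN passed as higher in si1 (0.2, adjusted p = 0.0428). SCD (ENSG00000099194, chr10:100347124-100364834), the desaturase that makes monounsaturated fatty acids, was at 150 and 140 FPKM in si1 and 73.8 and 71.6 in si2, against 140 and 138 in NC. It fell in si2 (-0.92, SE 0.0576, adjusted p = 0.000185) and had a value of 0.06 in si1 (adjusted p = 0.491). In si2 against si1 FASN was lower by a log2 difference of -0.69 (adjusted p = 0.00154) and SCD by -0.99 (SE 0.0576, adjusted p = 6.58e-05).

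FADS2, the delta-6 desaturase of polyunsaturated fatty acids, moved in opposite directions as LSS did. It was at 7.39 and 6.96 FPKM in si1 and 3.15 and 3.67 in si2, against 5.17 and 5.01 in NC, with no overlap between any 2 groups. It rose in si1 (0.42, SE 0.0908, adjusted p = 0.0172) and fell in si2 (-0.47, SE 0.0908, adjusted p = 0.0102), and si2 was lower than si1 by -0.89 (adjusted p = 0.000521). The rise was lost without NC replicate 1 (adjusted p = 0.086), NC replicate 2 (0.0968) or si1 replicate 1 (0.0644), and the fall without NC replicate 1 (0.0648), NC replicate 2 (0.0574) or si2 replicate 1 (0.0639). FADS2 overlaps FEN1 on the same strand, at a mean of 28.3 FPKM, and FADS1 on the opposite strand, so part of its reads may be shared. FADS1, the delta-5 desaturase, was at 14.1 and 12.4 FPKM in si1 and 11.6 and 11.4 in si2, against 12.9 and 13.7 in NC, and was not called in either group. The ratio of FADS2 to FADS1 was 0.524 and 0.559 in si1 and 0.271 and 0.321 in si2, against 0.402 and 0.367 in NC.

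The remaining fatty acid genes were not called in any comparison. ACACA, acetyl-CoA carboxylase, was at 20.2 and 16.5 FPKM in si1 and 15.7 and 15.4 in si2, against 17.6 and 17.2 in NC. It was lower in si2 than in si1 only in the fit without si1 replicate 2 (-0.36, adjusted p = 0.0113), as was FADS1 (-0.27, adjusted p = 0.0396). The elongase ELOVL5 was at 76.6 and 80.8 FPKM in si1 and 77.4 and 76 in si2, against 80.1 and 77.2 in NC, and its log2 fold changes were 0.00 in si1 and -0.04 in si2 with an SE of 0.057. ELOVL6, which lengthens palmitate, ranged from 16.7 to 19.3 FPKM over the 6 libraries, and ACSL3, an acyl-CoA synthetase of lipid droplets, from 29.7 to 37.1.

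Among the regulators, the gene for SREBP-2 fell in both groups and the gene for SREBP-1 was not called against NC. SREBF2 (ENSG00000198911, chr22:41833079-41907308), whose promoter carries the letters of the sterol element, was at 22.5 and 20.1 FPKM in si1 and 17.3 and 17.7 in si2, against 28.1 and 29.3 in NC. It fell in si1 (-0.41, SE 0.075, adjusted p = 0.00945) and in si2 (-0.68, SE 0.075, adjusted p = 0.00121). In si1 SREBF2 missed the threshold without NC replicate 1 (adjusted p = 0.0548) or NC replicate 2 (0.0723), and the difference between si2 and si1 (-0.27, adjusted p = 0.0267) was lost without any library but si1 replicate 2 (0.0535 to 0.124 in those 5 fits). SREBF1 was at 16.6 and 14.2 FPKM in si1 and 9.85 and 10.9 in si2, against 12 and 12.7 in NC. Neither value passed against NC (0.30, adjusted p = 0.0639 in si1 and -0.23, adjusted p = 0.107 in si2), and si2 was lower than si1 (-0.53, SE 0.0939, adjusted p = 0.00489). Without si1 replicate 2 SREBF1 passed as higher in si1 (0.4, adjusted p = 0.0349). The ratio of SREBF2 to SREBF1 was 1.36 and 1.41 in si1 and 1.75 and 1.63 in si2, against 2.34 and 2.31 in NC, lower in all 4 si1 and si2 libraries.

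SCAP, the escort of the SREBPs, was at 16.8 and 14.6 FPKM in si1 and 11.6 and 10.8 in si2, against 13.6 and 14.1 in NC. Its fall in si2 (-0.28, adjusted p = 0.048) was lost without NC replicate 1 (adjusted p = 0.137), NC replicate 2 (0.205), si2 replicate 1 (0.108) or si2 replicate 2 (0.2), whereas the difference from si1 passed (-0.45, adjusted p = 0.00649). INSIG1, the retention protein that is itself an SREBP target, was at 50.8 and 55.1 FPKM in si1 and 41 and 43.8 in si2, against 45.9 and 41 in NC. Its si2 libraries overlapped NC, unlike those of most sterol enzymes. INSIG1 rose in si1 (0.28, adjusted p = 0.0453), a call lost without any library except si1 replicate 1 (adjusted p = 0.0696 to 0.239 in those 5 fits), and it was lower in si2 than in si1 (-0.31, adjusted p = 0.0197), which was lost without si1 replicate 2 (adjusted p = 0.0687) or si2 replicate 1 (0.115).

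INSIG2, its paralogue, was at 7 and 8.32 FPKM in si1 and 11.1 and 9.14 in si2, against 9 and 8.16 in NC. It was the only member called higher in si2 than in si1 (0.36, adjusted p = 0.0478), and it missed the threshold without NC replicate 1 (0.0715), NC replicate 2 (0.0712), si1 replicate 1 (0.197) or si2 replicate 1 (0.241). The ratio of INSIG1 to INSIG2 was 7.25 and 6.63 in si1 and 3.7 and 4.79 in si2, against 5.1 and 5.03 in NC. STARD4 (chr5:111496033-111512590), a carrier that moves cholesterol between membranes, was at 8.37 and 8.45 FPKM in si1 and 10.7 and 9.18 in si2, against 13.4 and 12.5 in NC. It fell in si1 (-0.57, SE 0.0892, adjusted p = 0.00532, or 0.0501 without NC replicate 1) and in si2 (-0.35, adjusted p = 0.0255). In si2 STARD4 missed the threshold without NC replicate 1 (0.139), NC replicate 2 (0.0831) or si2 replicate 2 (0.134).

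The genes around the pathway were followed in 6 lists of 61 genes, 58 of which were tested. Called higher and lower were 7 and 11 in si1 and 11 and 12 in si2, and the medians were -0.02 and -0.08. As shares, 12.1% rose and 19% fell in si1, against 9.47% and 12.9% of all genes tested, and 19% rose and 20.7% fell in si2, against 13.6% and 15.4%, so these genes lay near the background. Each list below is small and is read against the same shares of all genes. Among 8 genes that process SREBPs or sense sterols, those that rose numbered 1 in si1 and 3 in si2, and those that fell 3 in si1 and 2 in si2. PAQR3, a Golgi anchor of SCAP, was at 2.81 and 3 FPKM in si1 and 4.59 and 3.97 in si2, against 5.71 and 5.55 in NC, and fell in both (-0.77, adjusted p = 0.00198 and -0.33, adjusted p = 0.0377). ERLIN2, an endoplasmic reticulum protein that binds the SREBP and INSIG complex, rose in both (0.57, adjusted p = 0.0032 and 0.28, adjusted p = 0.0378).

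Among 12 tested genes of sterol uptake, transport, storage and efflux, those that rose numbered 1 in si1 and 5 in si2, and 2 fell in each. NR1H2, which encodes the sterol-sensing nuclear receptor LXR-beta, rose in both (0.38, adjusted p = 0.00954 and 0.30, adjusted p = 0.0187), and STARD3, a late endosomal cholesterol carrier, fell in both (-0.45, adjusted p = 0.00503 and -0.32, adjusted p = 0.0153). MYLIP, an LXR-induced ubiquitin ligase, rose in si2 (0.53, adjusted p = 0.0154). VLDLR, a lipoprotein receptor, moved in opposite directions, at 5.04 and 5.26 FPKM in si1 and 10.7 and 11.1 in si2, against 8.92 and 8.38 in NC (-0.65, adjusted p = 0.00156 and 0.30, adjusted p = 0.0226). Its order of groups was the reverse of that of LSS and FADS2.

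Of 7 tested genes that supply carbon or NADPH to fatty acid synthesis, 2 rose and 0 fell in si1 (0 lower also at limma's unadjusted p under 0.05), and 1 rose and 2 fell in si2. ME1, malic enzyme, was at 107 and 121 FPKM in si1 and 72.2 and 71.3 in si2, against 51.1 and 47 in NC, and rose in both (1.20, adjusted p = 0.000191 and 0.54, adjusted p = 0.00326). ACSS2, which makes acetyl-CoA from acetate, fell in si2 (-0.56, adjusted p = 0.0207).

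Of 13 tested genes of elongation, desaturation and activation outside the members, 2 rose and 4 fell in si1, while 0 rose (0 also at limma's unadjusted p under 0.05) and 2 fell in si2 (15.4%, the share of all genes). ACSL1, an acyl-CoA synthetase, fell in si2 (-0.87, adjusted p = 0.00152), and the elongases ELOVL2 (-0.69, adjusted p = 0.023) and ELOVL7 (-0.66, adjusted p = 0.0126) fell in si1. Of 8 glycerolipid genes 2 fell and 0 rose in each group (0 also at limma's unadjusted p under 0.05), the phosphatidylcholine enzyme PCYT1A (-0.47, adjusted p = 0.00385 in si1 and -0.58, adjusted p = 0.00145 in si2) and the triglyceride enzyme DGAT2 (-0.50, adjusted p = 0.0401 and -0.82, adjusted p = 0.00575). LPIN1, the remaining gene with a large value in that list, was at -0.21 and -0.19 and did not pass. Of 10 genes of the prenylation, dolichol and ubiquinone branches, which draw on the same isoprenoids, 1 rose and 0 fell in si1 (1 fell at limma's unadjusted p under 0.05) and 2 rose and 2 fell in si2. PDSS2, a subunit of the enzyme that makes the ubiquinone tail, rose in both (0.38, adjusted p = 0.0335 and 0.51, adjusted p = 0.0102), the farnesyltransferase subunit FNTB fell in si2 (-0.56, adjusted p = 0.0371), and RABGGTA was at -0.27 and -0.35 with no call.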

How the data were processed

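RNA sequencing measured gene expression in 6 libraries of SK-MES-1 cells in 3 groups (si1, si2 and NC), 2 libraries each. The deposited table gives FPKM per gene, computed by the authors. Per the submitters' processing notes, the genome build is hg38. Which programs aligned and counted the reads, and whether counting used strand, is not given in the sources used here. Each value was a whole multiple of 1 read within 0.001, so reads per library, 14948607 to 17401392, were recovered. The FPKM carried equal median-ratio size factors in all 6 libraries, so the groups were already on a common scale.

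The log2 values are log2(FPKM + 1) of the authors' deposited FPKM, so changes of low genes are understated. The 12319 of 58735 genes whose mean reached 1 FPKM entered limma 3.58.1 in R 4.3.3, with a variance trend over 3 groups, 4 comparisons and 3 residual degrees of freedom. P-values were two-sided and adjusted by the Benjamini-Hochberg method over all genes tested, with a threshold of 0.05. The comparisons with NC share its libraries. The procedure was tested on simulated data. Members were matched by gene name. Around them, the 3 genes of each list with the largest mean change were named, plus those called in opposite directions; a few of these are not reported here. The 12 members of the plot of levels, and the gene ratios, were chosen after their values were seen. The members and lists were chosen with earlier results of these data known. Alternatives were other pseudocounts and filters, other scalings, no variance trend, other sample sets, a replicate term and leaving out each library. Median-ratio scaling divided every library by the same factor (1.01127), so its calls could hardly differ from those of the main fit.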

Additional observations from a re-analysis of the deposited data

Results flagged for a closer look

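For 21 of the 34 members the effect in si2 differed from that in si1 in limma's test of the difference itself (adjusted p under 0.05 over all genes tested). Of these, 20 were lower in si2, against 18.6% of all genes, and 1 was higher, against 19.9%. Values are log2 differences, si2 minus si1. In the sterol branch they were -1.56 for LSS, -1.03 for DHCR7, -0.88 for MVD, -0.78 for PMVK, -0.69 for TM7SF2, -0.67 for CYP51A1, -0.51 for MVK, -0.46 for SQLE, -0.43 for FDFT1, -0.41 for FDPS, -0.37 for NSDHL and -0.26 for MSMO1. In the fatty acid branch they were -0.99 for SCD, -0.89 for FADS2, -0.69 for FASN and -0.28 for ACLY. Among the regulators they were -0.53 for SREBF1, -0.45 for SCAP, -0.31 for INSIG1 and -0.27 for SREBF2, and INSIG2 was the exception in direction at 0.36.

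LSS and FADS2 were called in opposite directions against NC, and both comparisons share the NC libraries. With 2 libraries per group, no group was large enough to look for single libraries standing apart.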

How the results depend on the processing

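No member's call reversed under any alternative. Calls kept under every alternative run numbered 4 of 10 in si1 against NC (HMGCS1, PMVK, LSS and EBP), 12 of 20 in si2 against NC, 14 of 21 in si2 against si1 and 0 of 17 in the average of both groups against NC. With si1 and si2 libraries taken as 1 group, 0 members were lower in that average, against 17 (the si1 and si2 libraries then count as replicates of each other). With no filter on low values, 10 members were lower in the average, 2 rather than 4 were higher in si1, and 0 were higher in si2 than in si1. The single member higher in si2 than in si1, INSIG2, was likewise not called (0 members) without the variance trend, with only the groups compared, with scaling to total reads (an alternative chosen after seeing the data) and with the replicate block. Leaving out each library in turn gave 2 to 5 members higher and 3 to 7 lower in si1, 0 higher and 13 to 22 lower in si2, 0 to 2 higher and 15 to 19 lower in si2 against si1, and 0 to 1 higher and 7 to 17 lower in the average.

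With no filter, ACLY (adjusted p = 0.0727), FADS2 (0.0681) and INSIG1 (0.14) lost their calls in si1 and IDI1, EBP, SCAP and STARD4 theirs in si2 (0.0858 to 0.129, limma). The cause of the lost calls was not tested.

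The labels do not say whether same-numbered libraries were prepared together. Deviations of same-numbered libraries correlated at -0.052 (si1 and NC), 0.0503 (si2 and NC) and -0.0577 (si2 and si1). With 2 libraries per group each pair of groups gives only a single such value, so pairing cannot be settled from it. With the replicate block and 2 residual degrees of freedom, 3 members were higher and 6 lower in si1, 19 lower in si2, 20 lower in si2 against si1 and 13 lower in the average. INSIG1 in si1 (adjusted p = 0.0773) and SCAP in si2 (0.0638) were then not called.

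With 2 libraries per group, small differences could not be detected, and genes such as CYP51A1 and TM7SF2 rest on few reads. Another gene overlaps 23 members, for 10 of them one with a mean of at least 1 FPKM, and 5 have named pseudogenes.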
